A study of Mus musculus with 18 samples.

Results

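A set of 9 genes typical of hepatocytes near the portal vein, 8 enzymes of urea and amino acid metabolism and the adhesion gene Cdh1, was followed in the livers of mice born from frozen germline stem cells. They are Cps1, Otc, Ass1, Asl, Nags, Hal, Sds, Gls2 and Cdh1, chosen by gene symbol from the 32285 genes of the deposited count table, and all 9 were among the 13356 genes with enough counts to be tested. Liver RNA was sequenced from 18 mice in 3 groups of 6. Both kinds of pup descended from GS cells, a culture of sperm-forming stem cells. For Space pups the cells spent 6 months frozen aboard the International Space Station (ISS), and for Ground pups the same time frozen on Earth. The GS cells were of the DBA/2 strain and, by the methods of the study, came from mice carrying an EGFP transgene under an actin promoter. Recipient W mice carrying these cells were mated with C57BL/6 females, and the pups were killed at 10 weeks. The controls were wild-type BDF1 mice, whose age is not given separately. The labels give all 18 animals the strain B6D2F1 and the genotype wild-type, so apart from the freezing the pups also differed from BDF1 mice in their descent through culture and transplantation.

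Urea is made in the liver from ammonia and from the nitrogen of amino acids. Carbamoyl phosphate synthetase (Cps1), which is switched on by the N-acetylglutamate that Nags makes, and ornithine transcarbamylase (Otc) work in mitochondria, while argininosuccinate synthetase (Ass1) and argininosuccinate lyase (Asl) work in the cytosol. Histidine ammonia-lyase (Hal), serine dehydratase (Sds) and the liver glutaminase (Gls2) release ammonia from histidine, serine and glutamine. Cdh1 encodes E-cadherin, the adhesion protein of epithelial junctions, which in the liver is found on periportal hepatocytes and bile duct cells. These genes are known to be highest near the portal vein, and transcription of many of the enzymes follows feeding, glucocorticoids and glucagon.

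The libraries numbered 1 to 3 and 4 to 6 differed within each group, and the groups were therefore compared within each set of 3. Counts of Xist, the RNA that silences an X chromosome, were 0 to 187 in replicates 1 to 3 and 12218 to 21557 in replicates 4 to 6. The study states that males and females were used, and the labels give no sex. A difference between the sets therefore cannot be told apart from a difference between males and females. Total counts ranged from 15407450 to 20562351, and the 9 genes together took between 0.359% and 1.54% of them. The albumin gene Alb took between 17.6% and 24.1% of counts in the pup replicates 4 to 6, and between 4.47% and 8.03% in the other 12 libraries. Levels are given as CPM, the counts per 1000000 of the library size scaled by TMM, a method that sets the bulk of genes equal between libraries. Without it, by total counts alone, all tested genes had a median log2 difference from BDF1 mice in replicates 4 to 6 of -0.39 in Space pups and -0.46 in Ground pups, where with TMM it was 0.01 in both. Serpina6, the gene of corticosteroid-binding globulin, took 3.43% of counts in Space replicate 4, 3.41% in Ground replicate 5 and 2.18% in Ground replicate 6, and at most 0.107% in the other libraries. The summed CPM of 6 hepatocyte markers, most of it Alb, was between 57240 and 375800 in every library. It was higher in the pups of replicates 4 to 6 than in their BDF1 controls. A sum of 6 bile duct markers was between 12.7 and 37 CPM.

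Per kilobase of exon, the 9 genes covered a wide range of levels. Ass1 was highest, with 1376 ± 493 CPM per kilobase (SD, n = 18), followed by Cps1 with 629 ± 146. Sds (149 ± 69.1), Otc (125 ± 17.2), Asl (114 ± 24.6), Gls2 (113 ± 41.4) and Hal (94.8 ± 31.1) came next on the same scale. Neighbours among these last 5 genes did not differ beyond their spread. Nags (22.5 ± 3.28) and Cdh1 (9.39 ± 4.88) were lowest. Across libraries Otc and Nags varied least, with a highest level 1.64 and 1.67 times the lowest, and Cdh1 varied most, by 8.30 times, ahead of Sds (6.41 times), Gls2 (4.80 times) and Ass1 (4.54 times).

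RefSeq promoter entries (build GRCm38.p6, from 250 bases before to 50 bases after the start) were held for 4 of the 9 genes. Shown are those of Ass1 and Hal, which were lower in Ground pups of replicates 4 to 6, and that of Otc, which edgeR with TMM scaling called in no comparison. Capitals mark matches on either strand to TATAAA (the TATA box), to CCAAT (the box of that name), to GGGCGG (the GC box), to TGACG (found in cyclic AMP response elements) or to TTGCNNAA (the letters of C/EBP sites), and no 2 of these matches overlapped in the windows shown.
Ass1 (chr2:31470020-31470319, plus strand): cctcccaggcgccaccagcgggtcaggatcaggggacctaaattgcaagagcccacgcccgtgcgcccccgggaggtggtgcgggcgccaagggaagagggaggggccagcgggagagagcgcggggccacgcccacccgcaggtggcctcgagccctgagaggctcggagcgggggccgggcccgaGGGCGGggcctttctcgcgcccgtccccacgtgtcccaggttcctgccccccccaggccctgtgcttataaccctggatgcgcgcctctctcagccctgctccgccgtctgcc
Hal (chr10:93488518-93488817, plus strand): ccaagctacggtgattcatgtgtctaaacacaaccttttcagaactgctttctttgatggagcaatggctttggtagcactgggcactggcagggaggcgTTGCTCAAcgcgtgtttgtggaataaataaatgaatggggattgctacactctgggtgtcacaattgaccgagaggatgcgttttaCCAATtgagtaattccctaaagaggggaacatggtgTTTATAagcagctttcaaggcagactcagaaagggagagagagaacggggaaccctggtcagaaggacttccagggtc
Otc (chrX:10252055-10252354, plus strand): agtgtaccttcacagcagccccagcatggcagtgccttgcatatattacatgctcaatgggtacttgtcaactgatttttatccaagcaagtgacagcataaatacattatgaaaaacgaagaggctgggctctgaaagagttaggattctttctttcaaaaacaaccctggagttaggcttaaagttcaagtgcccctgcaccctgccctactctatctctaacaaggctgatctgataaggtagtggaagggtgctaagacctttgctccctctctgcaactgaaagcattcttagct
The Ass1 window held GGGCGG at base -63 from the start, a match found in 35.7% of 32851 promoters, and was rich in G and C at 74%. In the Hal window there was TATAAA on the minus strand at base -28 (13.6% of promoters), CCAAT at base -64 (37.4%) and TTGCNNAA at base -150 (10.8%). The Otc window held none of the 5 motifs, and TGACG, found in 20.8% of promoters, was in none of the 3. The Ass1 and Hal windows had none of these motifs in common.

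**Figure D1:**
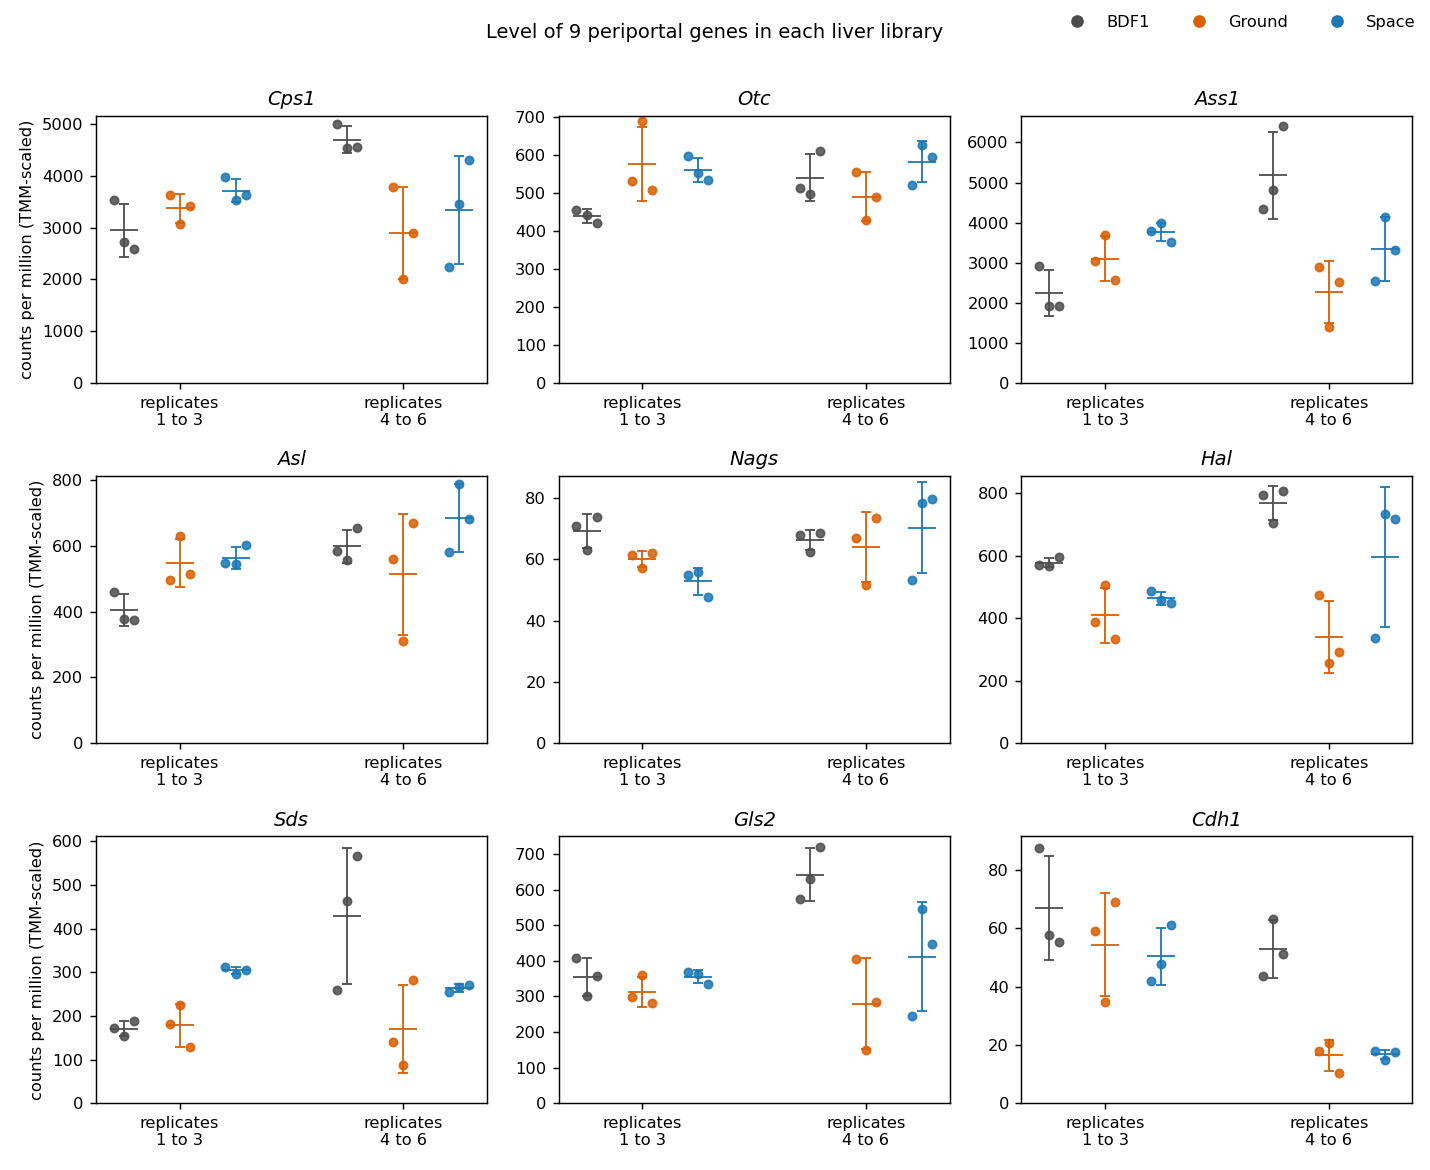
Level of each of the 9 genes (CPM of the TMM-scaled library, from 0) in every library, with the replicates in 2 sets of 3, points for single animals and bars for mean ± SD. In replicates 4 to 6 the BDF1 libraries lie above every Ground library for Cps1, Ass1, Hal, Gls2 and Cdh1, and Cdh1 is below 21 CPM in all 6 pups.

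The first comparison asked whether the urea cycle of pups matched that of naturally born mice in replicates 1 to 3. None of the 9 genes was called at an adjusted p under 0.05 in Space pups against BDF1 mice (edgeR quasi-likelihood test with Benjamini-Hochberg adjustment over all tested genes), where 4.64% of all genes were called. At an unadjusted p under 0.05 there were 5 of 9 beside 2584 of all 13356 genes tested, DESeq2 called 1 (Ass1) and limma voom with quality weights called 5. Ass1, the enzyme that joins citrulline to aspartate, had 3785, 3987 and 3526 CPM in Space pups and 2919, 1914 and 1935 CPM in BDF1 mice. The groups did not overlap, and the log2 difference was 0.74 ± 0.26 (SE) with an adjusted p of 0.123 by edgeR. Sds, which turns serine into pyruvate and ammonia, had 313, 296 and 306 CPM in Space pups against 172, 154 and 188 CPM in BDF1 mice. That is a log2 difference of 0.83 ± 0.33 (SE) with an adjusted p of 0.167 by edgeR. Asl (0.48), Otc (0.35) and Cps1 (0.33) had positive log2 differences with no overlap either, and Nags (-0.39) and Hal (-0.32) negative ones with no overlap. Separated groups were common, since 35.2% of all tested genes did not overlap in this comparison. Marker sums separated these groups too. Acute phase markers (4 genes) were at 56.3 to 84.5 CPM in Space pups and 271.8 to 1083 CPM in BDF1 mice, and ran from 62.7 to 2640 CPM in Ground pups. Endothelial markers were also lower in every Space library, and hepatocyte, stellate and dividing-cell markers higher. The part of these cells was not tested. The Space values of Ass1, Asl, Nags and Sds passed the test once the 3 Serpina6-high libraries, which are not in this comparison but share its estimate of spread, were left out (adjusted p of 0.0272 for Ass1 and 0.0373 for Sds by edgeR).

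In Ground pups of replicates 1 to 3 again 0 of 9 genes were called, beside 1.92% of all genes, with 1 gene at an unadjusted p under 0.05 in edgeR (2128 of all genes), 0 called by DESeq2 and 1 by limma voom. The log2 differences ran from -0.50 for Hal to 0.46 for Ass1. Sds, the gene furthest from BDF1 mice in Space pups, stood at 183, 226 and 128 CPM in Ground pups, a log2 difference of 0.06 ± 0.32 (SE). Its values in Ground pups overlapped those of BDF1 mice. Otc and Asl lay above, and Nags and Hal below, the BDF1 values in all 3 animals, while 23.9% of all tested genes showed no overlap. Between Space and Ground pups themselves none of the 9 genes was called by edgeR, DESeq2 or limma voom, beside 0.00749% of all genes in edgeR. Sds was the 1 gene of the 9 with an unadjusted p under 0.05 (1292 of all genes), with a log2 difference of 0.77 ± 0.33 (SE) and an adjusted p of 0.474 by edgeR. It was also higher in each Space library than in each Ground library, and Nags lower, against 16.6% of all genes without overlap.

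In replicates 4 to 6, several enzymes were lower in Ground pups than in BDF1 mice. Of the 9 genes, 5 fell: Ass1, Hal, Sds, Gls2 and Cdh1, and none rose. With the 9 libraries of this set fitted alone 2 fell, and Hal (adjusted p of 0.0538), Sds (0.0700) and Gls2 (0.0784) did not pass by edgeR, while by total counts all 9 fell. In this comparison 15.2% of all genes were called and 7.35% were called lower. The median log2 difference of the 9 genes was -1.17, against 0.01 over all tested genes. Cps1, Ass1, Hal, Gls2 and Cdh1 had no overlap between the groups, which held for 30.0% of all genes. In bulk liver, a lower level cannot be told apart from fewer cells that make the RNA.

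Ass1 (chr2:31470207-31520672 in mm10, plus strand) fell among the urea cycle enzymes by edgeR. It had 2899, 1412 and 2528 CPM in Ground pups and 4334, 4811 and 6405 CPM in BDF1 mice of replicates 4 to 6. Every Ground library lay below every BDF1 library, and the log2 difference was -1.18 ± 0.26 (SE) with an adjusted p of 0.00723 by edgeR. Cps1, the entry enzyme and the most counted of the 9 genes, had 3781, 2014 and 2888 CPM in Ground pups against 4998, 4531 and 4557 CPM. These did not overlap either, but the log2 difference of -0.70 ± 0.23 (SE) missed the threshold in edgeR with an adjusted p of 0.0513. DESeq2 (0.0164) and limma voom (0.0141) called Cps1 lower, as edgeR did by total counts (0.00495), so that each of these called more than the 5 genes. The other enzymes of the cycle lay nearer to BDF1 mice. Otc differed by -0.14 ± 0.14 (SE) and Asl by -0.22 ± 0.21 (SE) on the log2 scale, with adjusted p of 0.535 and 0.504 by edgeR. Nags, whose product activates Cps1, differed by -0.05 ± 0.15 (SE).

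The ammonia-releasing enzymes Hal, Gls2 and Sds fell in Ground pups of the same set. Hal (chr10:93488768-93519304 in mm10, plus strand) had 473, 258 and 292 CPM in Ground pups and 795, 705 and 806 CPM in BDF1 mice, a log2 difference of -1.17 ± 0.26 (SE) with an adjusted p of 0.00651 by edgeR. Gls2 (chr10:128194457-128210004, plus strand) had 406, 150 and 283 CPM against 573, 629 and 721 CPM, with a log2 difference of -1.20 ± 0.29 (SE) and an adjusted p of 0.0120 by edgeR. Both genes were lower in each Ground library than in any BDF1 library. Sds (chr5:120476526-120483932, plus strand) had 141, 88.3 and 283 CPM against 259, 463 and 566 CPM, so that Ground replicate 6 lay above BDF1 replicate 4. Its log2 difference was -1.33 ± 0.33 (SE) with an adjusted p of 0.0128 by edgeR, and without BDF1 replicate 6 it was -1.08 with an adjusted p of 0.0614.

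Ground replicate 5 had the lowest level of all 18 libraries for Cps1, Ass1, Asl, Hal, Sds and Gls2. With Serpina6-high libraries left out, which leaves Ground replicate 4 alone in its set and assumes that it varies as the other sets do, the log2 differences of Hal (-0.70), Sds (-1.60) and Cdh1 (-1.54) still passed, with adjusted p of 0.0335, 0.0157 and 0.0251 by edgeR. Those of Ass1 (-0.83) and Gls2 (-0.65) did not, with adjusted p of 0.0864 and 0.0589.

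Space pups of replicates 4 to 6 had 1 gene called, Cdh1, which was lower. In this comparison with BDF1 mice 11.9% of all genes were called and 5.49% were called lower, and the median log2 difference of the 9 genes was -0.49. Cps1, Ass1, Gls2 and Cdh1 were lower in each Space library than in any BDF1 library, while 31.5% of all genes had no overlap. Ass1 had 2553, 4154 and 3327 CPM, Gls2 244, 545 and 446 CPM, and Hal 336, 733 and 719 CPM in these Space pups. Space replicate 4, one of the Serpina6-high libraries, was the lowest of the 3 for each. The log2 differences were -0.63 ± 0.26 (SE) for Ass1, -0.64 ± 0.29 (SE) for Gls2, -0.37 ± 0.25 (SE) for Hal and -0.49 ± 0.23 (SE) for Cps1, with adjusted p between 0.119 and 0.355 by edgeR. Without the Serpina6-high libraries these became -0.47 for Ass1, -0.37 for Gls2, -0.09 for Hal and -0.28 for Cps1. Sds, at 254, 267 and 270 CPM, was nearly level among the Space pups and overlapped the lowest BDF1 library, with a log2 difference of -0.70 ± 0.33 (SE). By total counts, Cps1, Ass1, Sds and Gls2 also passed in Space pups. The log2 difference of Ass1 was then -1.01 against the shift of -0.39 in all genes, and the small positive differences of Otc, Asl and Nags turned negative.

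Cdh1 (chr8:106603351-106670246 in mm10, plus strand) fell in both kinds of pup. It had 18, 14.9 and 17.5 CPM in Space pups, 18.1, 20.7 and 10.6 CPM in Ground pups and 43.6, 63.4 and 51.4 CPM in BDF1 mice of replicates 4 to 6. No pup reached the lowest BDF1 level. The log2 difference from BDF1 mice was -1.65 ± 0.27 (SE) in Space pups, with an adjusted p of 0.00168 by edgeR, and -1.68 ± 0.27 (SE) in Ground pups, with an adjusted p of 0.000997. Both calls held in all 18 fits that left out 1 library and in all 9 other settings tried. Because Cdh1 is also made in bile ducts, the 6 bile duct markers were summed beside it. They gave between 22.3 and 23.8 CPM in Space pups and between 12.7 and 19.4 CPM in Ground pups of replicates 4 to 6. BDF1 mice of that set had between 22.0 and 25.2 CPM. The Space and BDF1 ranges thus overlapped, while every Ground library lay below every BDF1 library, as for Cdh1. Spp1 was the largest part of the sum, at 9.51 to 16.2 CPM in Ground pups against 17.4 to 20.1 CPM. Sox9 was also lower in Ground pups, while Krt19, Krt7, Epcam and Cftr, each at most 2.02 CPM, overlapped. Dividing-cell markers (4 genes) were at 5.54 to 46.5 CPM in Space pups and 15.1 to 26.8 CPM in Ground pups, above the 1.08 to 1.39 CPM of BDF1 mice. Other marker sums also separated these pups from BDF1 mice. Kupffer cell markers (5 genes) did so in Space pups only, at 83.2 to 122.7 against 38.45 to 82.4 CPM, and overlapped in Ground pups. Red cell markers (3 genes) were at 178.8 to 629.8 CPM in Space and 66.6 to 475.6 CPM in Ground pups against 19.9 to 65.5 CPM. The sum of 3 lymphocyte markers was at 1.17 to 2.197 and 1.11 to 1.71 against 0.492 to 1.03 CPM. Each lymphocyte gene alone was near the floor, at most 1.62 CPM, and overlapped BDF1 mice in both kinds of pup. The sum of 5 pancreas acinar markers was lower in the pups, at 9.48 to 18.7 and 6.98 to 12.8 against 33.6 to 39.3 CPM. It was nearly all Cela1, at 9.31 to 18.6 and 6.49 to 12.2 against 33.2 to 38.9 CPM. Cpa1, Cela2a and Ctrb1 each reached at most 0.403 CPM in any library, and Pnlip was at 0. The sum of 6 hepatocyte markers was at 223500 to 277500 CPM in Space and 214900 to 375800 CPM in Ground pups against 71750 to 92620 CPM. Most of it was Alb, at 195700 to 249400 and 193500 to 341900 against 57360 to 75500 CPM. Apoa1 and Hnf4a were also higher in every pup, and Serpina1c in every Space pup. Ttr and Apob overlapped BDF1 mice in both kinds of pup, and Serpina1c in Ground pups. Haploid germ cell markers (5 genes) overlapped between the groups, with 46.3 CPM in a Space library and at most 0.0658 CPM in Ground pups and 0.134 CPM in BDF1 mice. The part of these cells in the result was not tested.

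**Figure D2:**
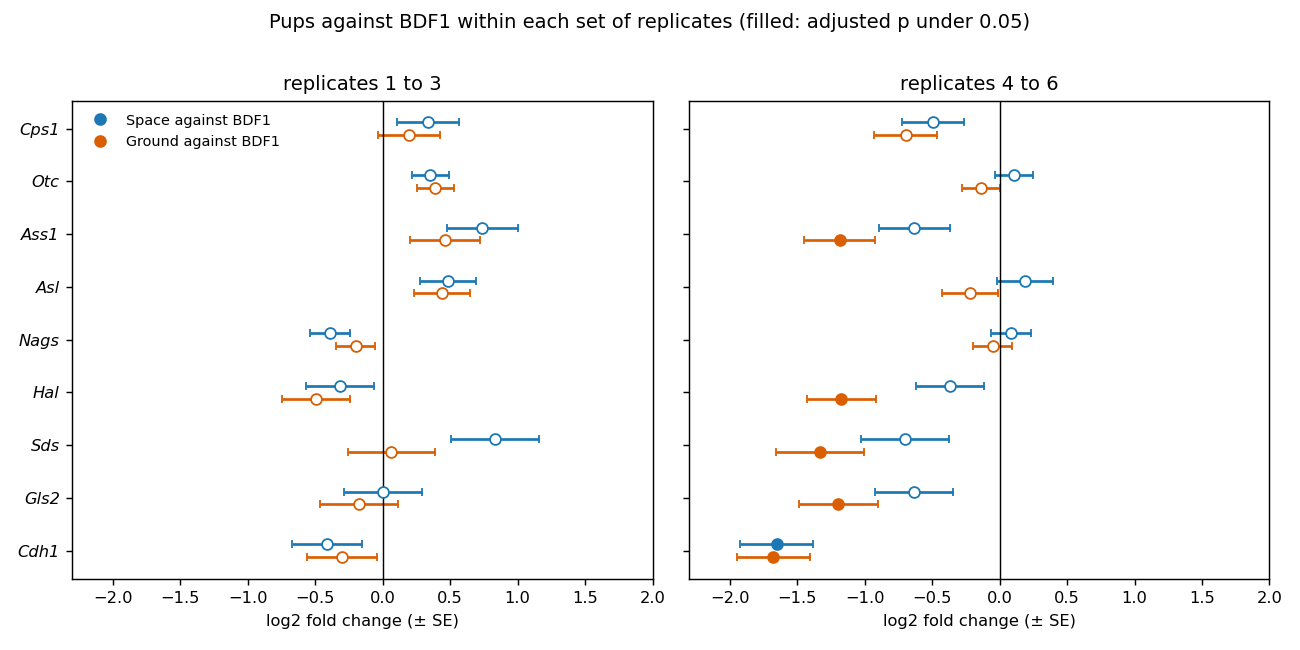
Log2 fold change of each gene in Space and Ground pups against BDF1 mice, with bars of 1 SE from the edgeR fit, in replicates 1 to 3 (left) and 4 to 6 (right). Filled points have an adjusted p under 0.05: none on the left, and on the right Cdh1 in both kinds of pup with Ass1, Hal, Sds and Gls2 in Ground pups.

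Between Space and Ground pups of replicates 4 to 6, 0 of 9 genes were called by edgeR, DESeq2 or limma voom, beside 0.0225% of all genes in edgeR. All 9 log2 differences were positive, from 0.02 for Cdh1 to 0.81 for Hal, with a median of 0.41, and 2 of them (Hal and Ass1) had an unadjusted p under 0.05, as did 1852 of all genes. No gene separated the groups fully, as 13.7% of all genes did. Hal, at 0.81 ± 0.25 (SE), had an adjusted p of 0.206 by edgeR and was called in 1 of 18 fits that left out a library, the fit without Space replicate 4 (0.0244). A call in Ground pups and none in Space pups is therefore not a shown difference between the pups for Ass1, Hal, Sds or Gls2.

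Whether the pups' difference from BDF1 mice itself changed between the replicate sets was tested as an interaction. For Ground pups, 1 of 9 genes was called, Ass1, beside 2.74% of all genes, with 7 of 9 at an unadjusted p under 0.05 in edgeR (2317 of all genes), 3 called by DESeq2 and 4 by limma voom. Its log2 difference moved from 0.46 in replicates 1 to 3 to -1.18 in replicates 4 to 6, a change of -1.65 ± 0.37 (SE) with an adjusted p of 0.0253 by edgeR. It no longer passed when any 1 of BDF1 replicates 2, 3, 5 or 6 or Ground replicate 2 was left out, with adjusted p of up to 0.0841. The same held without the Serpina6-high libraries, with a change of -1.29 and an adjusted p of 0.0638. For Space pups no gene was called, beside 3.19% of all genes, though 5 of 9 had an unadjusted p under 0.05 in edgeR (2541 of all genes), DESeq2 called 3 and limma voom 5. Ass1 was nearest, with a change of -1.37 ± 0.37 (SE) and an adjusted p of 0.0527 by edgeR. Sds (-1.53 ± 0.46) and Cdh1 (-1.24 ± 0.37) followed, both with an adjusted p of 0.0786. For Space against Ground none of the 9 genes was called by edgeR, DESeq2 or limma voom, with 0 at an unadjusted p under 0.05, and 0% of all genes were called by edgeR.

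The sets were also compared within each group. In BDF1 mice Ass1 and Sds were higher in replicates 4 to 6 than in 1 to 3, by 1.20 ± 0.26 (SE) and 1.33 ± 0.33 (SE) on the log2 scale, with adjusted p of 0.00593 and 0.0128 by edgeR. In that comparison 14.6% of all genes were called and 7.29% were called higher. Marker sums also separated these BDF1 sets. Acute phase markers (4 genes, mostly Saa1) were at 271.8 to 1083 CPM in replicates 1 to 3 and 38.55 to 84.37 CPM in replicates 4 to 6. The sum of 9 genes expressed near the central vein was at 5719 to 7000 and 8663 to 11190 CPM. Red cell markers were lower and stellate cell markers higher in replicates 4 to 6. The part of these was not tested. The other urea cycle enzymes had positive log2 differences of 0.67 for Cps1, 0.57 for Asl and 0.30 for Otc that did not pass in edgeR. DESeq2 called Cps1 (adjusted p of 0.0210) and Asl (0.0413), and limma voom called all 3. Nags was at -0.06. Gls2 was at 0.85 ± 0.29 (SE) with an adjusted p of 0.0588 by edgeR, and passed by DESeq2 (0.0243) and limma voom (0.00390). The call on Sds was lost without BDF1 replicate 2 or BDF1 replicate 6, with an adjusted p of up to 0.0635. In the pups neither gene passed by edgeR with TMM scaling. Ass1 differed by -0.17 ± 0.26 (SE) between the sets in Space pups and by -0.45 ± 0.26 (SE) in Ground pups.

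By edgeR with TMM scaling, Cdh1 was the 1 gene called between the sets in each kind of pup. Of all genes, 21.9% were then called in Space pups and 18.3% in Ground pups. In Space pups DESeq2 also called Nags (adjusted p of 0.0409), and limma voom called Nags (0.00334) and Hal (0.0346). Without the Serpina6-high libraries Asl, Nags, Hal and Gls2 also passed there by edgeR, at log2 differences of 0.39, 0.59, 0.65 and 0.49. By total counts Otc (-0.64) and Ass1 (-0.84) also passed in Ground pups. In Space pups Cdh1 went from 42.1, 47.8 and 61.3 CPM in replicates 1 to 3 to 14.9 to 18 CPM in replicates 4 to 6. Its log2 difference was -1.59 ± 0.27 (SE) with an adjusted p of 0.000643 by edgeR. Ground pups had 59.1, 34.8 and 69.2 CPM in replicates 1 to 3, and the log2 difference was -1.72 ± 0.27 (SE) with an adjusted p of 0.000313. In BDF1 mice, with 87.7, 57.9 and 55.4 CPM in replicates 1 to 3, it was -0.34 ± 0.26 (SE) with an adjusted p of 0.415. The difference between those changes in pups and in BDF1 mice missed the threshold, with an adjusted p of 0.0786 for Space pups and 0.0604 for Ground pups by edgeR.

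**Figure D3:**
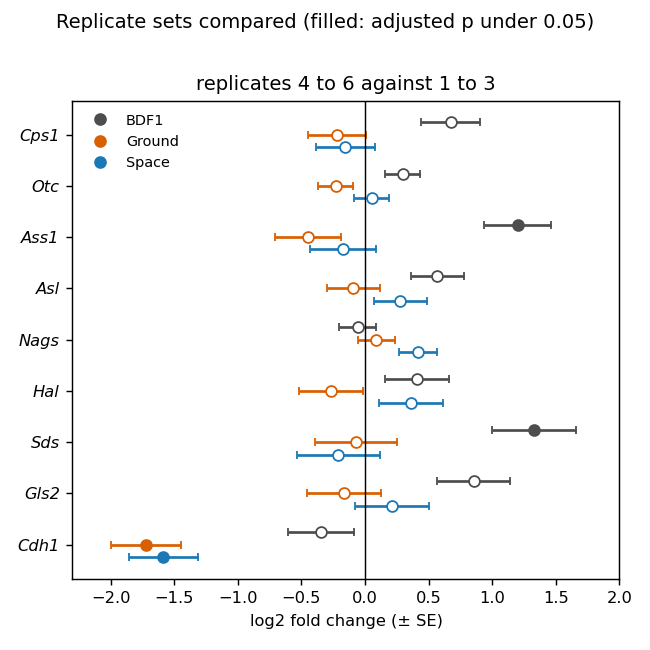
Log2 fold change of each gene in replicates 4 to 6 against replicates 1 to 3, separately in BDF1 mice, Ground pups and Space pups, with bars of 1 SE from the edgeR fit. Filled points have an adjusted p under 0.05: Ass1 and Sds on the positive side in BDF1 mice and Cdh1 on the negative side in both kinds of pup.

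Contrasts were also averaged over the sets. In Space pups Cdh1 was lower, by -1.03 ± 0.19 (SE) on the log2 scale, beside 12.9% of all genes called. In Ground pups 3 of 9 genes were lower, beside 14.6% of all genes: Cdh1 (-0.99), Hal (-0.83) and Gls2 (-0.69), with adjusted p of 0.00299, 0.00659 and 0.0342 by edgeR. With group and set in the model but no interaction Gls2 did not pass, and with group alone neither Gls2 nor Cdh1 passed, nor did Cdh1 in Space pups. Ass1, at 0.05 in Space and -0.36 in Ground pups, averaged differences of opposite sign. Between Space and Ground pups none was called, beside 0.0225% of all genes, and 3 of 9 had an unadjusted p under 0.05, as did 2134 of all genes.

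The 9 genes varied together to differing degrees. Over the 18 libraries, which share the differences between groups and sets, Hal and Gls2 had a Pearson r of 0.90 on log2 CPM, Ass1 and Gls2 0.85, and Cps1 and Gls2 0.84. After each set's mean within its group was taken away, Ass1 and Gls2 had 0.91, Hal and Gls2 0.86, and Ass1 and Asl 0.85. Cdh1 stood apart: after the same step its r with the other 8 genes ran from -0.51 with Sds to 0.03 with Cps1. The mean of Cps1, Otc, Ass1 and Asl, each centred on its own mean log2 CPM, was lowest in Ground replicate 5 at -0.75 and highest in BDF1 replicate 6 at 0.49. Among 7473 other genes of at least 10 CPM, those most like this mean over the 18 libraries were Aldh1l1 (r of 0.925), Pecr (0.91), Gpt (0.91), Gchfr (0.90) and Gnmt (0.90). Least like it were Ldha (-0.91), Actn4 (-0.89), Gatad2a (-0.87), Wrnip1 (-0.87) and Smurf2 (-0.87). Gpt is an aminotransferase of alanine and Ldha makes lactate from pyruvate.

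**Figure D4:**
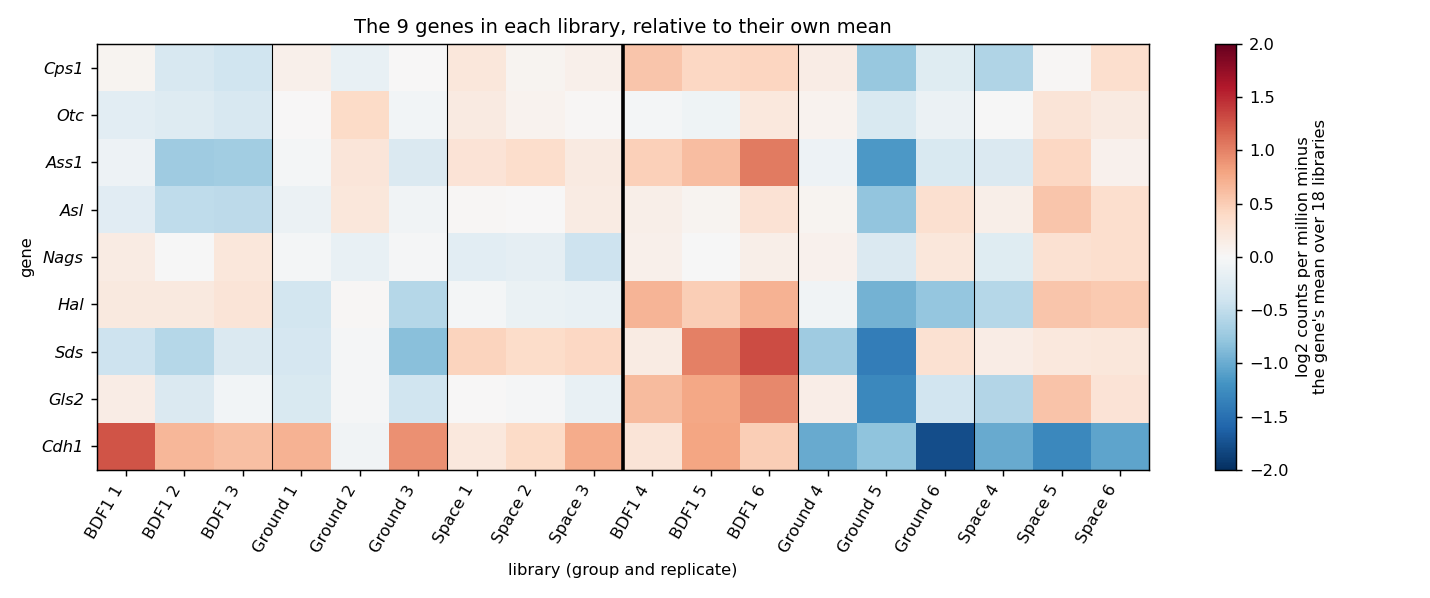
Level of the 9 genes in each library as log2 CPM minus the gene's mean over the 18 libraries (colour), with libraries ordered by replicate set and group. Ground replicate 5 is below the mean for all 9 genes, and Cdh1 is low in all 6 pup libraries of replicates 4 to 6.

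Genes that bring nitrogen to the cycle were examined as a listed group of 18 transporters, carriers and aminotransferases, of which 17 were tested. In Ground pups of replicates 4 to 6, 8 of 17 fell and 1 rose against BDF1 mice, beside 7.35% of all genes called lower. They included Slc7a2, a transporter of arginine and ornithine (-1.60, adjusted p of 0.00337 by edgeR), Slc38a4, an amino acid transporter (-1.57, 0.0176), Gpt, alanine aminotransferase (-1.04, 0.00300), and Got1, aspartate aminotransferase (-0.998, 0.0190), all as log2 differences. In Space pups of that set 5 fell and 1 rose, beside 5.49% of all genes called lower and with no gene of the list called between Space and Ground pups by edgeR (smallest adjusted p of 0.330), with Slc7a2 at -1.44, the mitochondrial ornithine carrier Slc25a15 at -0.61 and the mitochondrial carbonic anhydrase Car5a at -0.41, and the glutamate carrier Slc25a22 higher at 0.88. In replicates 1 to 3, 1 gene of the list rose and 1 fell in Space pups and 1 rose in Ground pups, beside 4.64% and 1.92% of all genes called. The glutamine transporter Slc38a2 was higher in both kinds of pup, by 1.58 in Space pups (adjusted p of 0.000975 by edgeR) and 1.16 in Ground pups (0.0172). BDF1 mice showed 6 of the 17 genes higher and none lower in replicates 4 to 6 than in 1 to 3, beside 7.29% of all genes called higher, with Got1 at 1.15 and Gpt at 0.97. By total counts the calls in replicates 4 to 6 were 14 lower in Space and 15 lower in Ground pups with none higher, so the rise of Slc25a22 was not kept (adjusted p of 0.0826 and 0.575 by edgeR), against the shift of all genes given above. Without the Serpina6-high libraries, 6 fell and none rose in Ground pups, where Slc25a22 no longer passed at a log2 difference of 0.73 in place of 0.61 (adjusted p of 0.0594), and 7 fell and 1 rose in Space pups.

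Of 42 genes of amino acid breakdown, 41 were tested. In Ground pups of replicates 4 to 6, 16 fell and none rose, beside 7.35% of all genes called lower, and the median log2 difference was -0.35 against 0.01 over all genes. The largest falls were in Prodh, proline dehydrogenase (-1.62, adjusted p of 0.00543 by edgeR), Csad, an enzyme of taurine synthesis (-1.36, 0.00387), Oat, ornithine aminotransferase (-1.31, 0.00613), and Cth, the last step to cysteine (-1.11, 0.00162). In Space pups 4 fell and 1 rose, beside 5.49% of all genes called lower, and between Space and Ground pups none of the 41 was called by edgeR (smallest adjusted p of 0.147). Csad at -1.80 and the tryptophan dioxygenase Tdo2 at -0.74 were among the lower ones, and Bhmt, which remakes methionine, rose by 0.74. Replicates 1 to 3 had 1 such gene higher in Space pups, Haao (0.63), and 1 lower in Ground pups, Amt (-0.51), beside 4.64% and 1.92% of all genes called. In BDF1 mice 15 were higher (7.29% of all genes) and 2 lower in replicates 4 to 6 than in 1 to 3, led by Oat (1.25) and Prodh (1.14). Without the Serpina6-high libraries 8 of 41 fell and 1 rose in Ground pups of replicates 4 to 6, and 8 fell and 2 rose in Space pups. Calls were then lost on Bhmt in Space pups (0.68, adjusted p of 0.0555 by edgeR) and on Oat (-1.20, 0.106) and Tdo2 (-0.92, 0.0687) in Ground pups. By total counts 33 fell there and 21 in Space pups, where the rise of Bhmt was not kept (adjusted p of 0.188), and Haao in replicates 1 to 3 stood at 0.50 without passing (0.0836 by edgeR). A sum of 9 markers expressed near the central vein, Oat among them, was lower in the pups of replicates 4 to 6. It was between 5911 and 7750 CPM there and between 8663 and 11190 CPM in their BDF1 controls. Its largest part, Cyp2e1, was at 3638 to 4104 in Space and 3190 to 4230 in Ground pups against 4965 to 6576 CPM. Cyp1a2 and Lgr5 were also lower in every pup, and Oat in every Ground pup. Glul, Slc1a2, Rhbg, Axin2 and Rgn overlapped BDF1 mice in both kinds of pup, and Oat in Space pups. The part of these genes was not tested.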

How the data were processed

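The deposited values were raw read counts per gene, made by the authors from stranded mRNA libraries of liver. The submitters' processing notes name bcl2fastq 2.20, cutadapt 4.6, HISAT2 2.2.1 and HTSeq 2.0.2 with the mm10 genome, and the study's methods name GENCODE M21 for RNA sequencing in general. The strand setting of the counting is not given in the sources used here. Without it, reads of Nags, Sds and Gls2 could include reads of the opposite-strand genes Gm11586, Plbd2, Gm15690 and Spryd4, which overlap 15.6% of Nags exon bases, 21.3% and 8.32% of those of Sds and 2.79% of those of Gls2.

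The labels gave the group and replicate number of each library, and libraries were split into replicates 1 to 3 and 4 to 6. Genes passing filterByExpr were scaled by TMM and fitted over all 18 libraries in edgeR 4.0.16 (R 4.3.3), with a mean for each of 6 sets of 3 libraries and 12 residual degrees of freedom. Contrasts were taken within sets, between sets and as their difference, with Benjamini-Hochberg adjustment over 13356 genes and a threshold of 0.05. Averages over both sets were added after the counts had been seen. Standard errors are the absolute log2 fold change over the square root of F, with a prior count of 2 for log2 CPM. The alternatives were other scalings and filters, DESeq2 1.42.0, limma voom (limma 3.58.1), a replicate block, and subsets of libraries. The code was tested on simulated data. An exact permutation test of 3 libraries against 3 cannot go below p = 0.1, so none was used for single genes.

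The genes and the gene lists were chosen with earlier results of these data known, and 1 further gene of the set is not reported here. The genes named from the lists had an adjusted p under 0.05 within a set, a mean of at least 10 CPM and the largest log2 fold changes, at most 4 for each list and comparison. Promoters were matched to RefSeq by gene symbol. The labels call the libraries biological replicates and give no litter, so p-values measure the spread between these animals. Space replicates 1 and 2 were the closest pair of libraries, with a chi-square of 9.78 per gene where sampling noise gives 1, and no library was counted as a duplicate.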

Additional observations from a re-analysis of the deposited data

Results flagged for a closer look

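The difference of Ground pups from BDF1 mice in Ass1 changed between replicates 1 to 3 and replicates 4 to 6 by -1.65 on the log2 scale, and stands out because that change itself passed the test (adjusted p of 0.0253, edgeR interaction test, 12 residual degrees of freedom). It passed in 13 of 18 fits that left out a library, with adjusted p of up to 0.0841, and not without the Serpina6-high libraries (-1.29, 0.0638) or with the replicate block (-1.65, 0.0689). In replicates 1 to 3, 3 of 3 Ground libraries lay above the lower pair of BDF1 libraries and the groups overlapped. In replicates 4 to 6, 3 of 3 lay below every BDF1 library. Part of the change lay in the controls, whose Ass1 level was 2256 ± 574 CPM (SD, n = 3) in replicates 1 to 3 and 5183 ± 1085 CPM in replicates 4 to 6, while the Ground means were 3105 ± 567 CPM and 2280 ± 774 CPM.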

How the results depend on the processing

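Of 105 counts of called genes under other settings, 75 stayed within 1.5 times of the value given in the report, as did 193 of 216 counts from fits without 1 library, and no called gene turned its direction. Against BDF1 mice in replicates 1 to 3, the count for Space pups went from 0 to 1 with DESeq2, 5 with limma voom, 4 with the 9 libraries of that set alone and 4 with the Serpina6-high libraries left out, and for Ground pups to 1 with limma voom and 2 without the Serpina6-high libraries. In replicates 4 to 6, total counts in place of TMM gave 5 genes for Space pups and 9 for Ground pups, in place of 1 and 5. For Ground pups the 9 libraries of the set alone gave 2 (Ass1 and Cdh1), and leaving out the Serpina6-high libraries gave 3. The change between sets in Space pups against BDF1 mice went from 0 to 2 genes by total counts, 3 without a filter on low counts, 3 with DESeq2, 5 with limma voom and 3 without the Serpina6-high libraries. For Ground pups it went from 1 to 5, 2, 3, 4 and 0 under the same settings in that order.

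The replicate numbers do not pair the libraries: deviations of libraries with the same number had r from -0.60 to 0.25, over 0.1 in 3 of 18 pairs, and 5 of 18 libraries were closest to one of their own number. With the replicate block, the Ass1 change in Ground pups kept its size (-1.65) with an adjusted p of 0.0689 (0 genes), and the counts of Cdh1 alone in Space pups and of 5 genes in Ground pups of replicates 4 to 6 were the same. Of the breakdown genes, 11 in place of 16 were then lower in those Ground pups, of the other periportal genes 0 in place of 2, and of the junction partners 1 in place of 3 in Space pups. In Ground pups of replicates 1 to 3 Slc38a2, Amt and Ctsc no longer passed with the block. Replicates 4 to 6 against 1 to 3 gave 2 genes with DESeq2, 3 with limma voom and 5 without the Serpina6-high libraries in Space pups, 3 by total counts in Ground pups, and 5, 6 and 6 in BDF1 mice with DESeq2, with limma voom and without the Serpina6-high libraries. With group alone in the model, 0 genes were called for Space and 1 (Hal) for Ground pups against BDF1 mice over all libraries.

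Leaving out 1 library at a time gave 0 to 1 genes for Space against Ground in replicates 4 to 6 and 4 to 6 for Ground against BDF1. The change between sets gave 0 to 2 genes for Space and 0 to 4 for Ground pups. Replicates 4 to 6 against 1 to 3 gave 1 to 3 genes in Space pups and 1 to 5 in BDF1 mice. The cause of these shifts was not tested. With 3 libraries in each set, a log2 difference in Sds or Gls2 of the size seen in Space pups of replicates 4 to 6 did not pass.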

Other observations

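A list of 13 genes held known regulators of these enzymes and also Glul, which was among the central vein markers above. In replicates 1 to 3, 3 rose in Space and 2 in Ground pups against BDF1 mice and none fell, beside 4.64% and 1.92% of all genes called, and in replicates 4 to 6, 1 rose and 1 fell in Space pups and 3 rose in Ground pups, beside 11.9% and 15.2% of all genes called in that set. The counts in replicates 4 to 6 depended on the scaling and on the Serpina6-high libraries. By total counts 1 rose and 6 fell in Space and 6 fell and none rose in Ground pups. All genes shifted down by that scaling, with a median of -0.39 in Space and -0.46 in Ground pups. Without the Serpina6-high libraries, which leaves 1 Ground library in the set, the median log2 difference of the list in Ground pups was -0.01 in place of -0.06. Among them Cebpb, a hormone-responsive transcription factor, was higher in replicates 1 to 3 by 1.42 in Space and 1.39 in Ground pups on the log2 scale (adjusted p of 0.0120 and 0.0232, edgeR), and Foxo1, a target of insulin signalling, by 0.63 and 0.68. Klf15, a transcription factor of amino acid breakdown, was higher in Space pups of replicates 1 to 3 (1.14, adjusted p of 0.00223) and lower in those of replicates 4 to 6 (-0.60, adjusted p of 0.0397), a change of -1.74 between the sets with an adjusted p of 0.00179. In replicates 4 to 6 Creb3l3, a liver factor of the fasting response, was higher in both kinds of pup, by 0.77 and 0.79. The call on Creb3l3 in Ground pups was lost by total counts and without the Serpina6-high libraries (0.29 and 0.43, adjusted p of 0.0816 and 0.0895, edgeR). By total counts the differences of Foxo1 in replicates 1 to 3 were 0.49 and 0.61 and did not pass (0.0812 and 0.0614), and in Ground pups of replicates 4 to 6 its call (0.52) was lost without the Serpina6-high libraries (0.47, adjusted p of 0.111) and by total counts (0.03, 0.863).

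Of 12 other periportal genes tested, 1 rose and 1 fell in Space pups and 1 rose and 2 fell in Ground pups of replicates 4 to 6, with Cyp17a1 higher by 1.33 and 1.45 and Fbp1, of glucose synthesis, lower by -0.61 and -0.35. These counts lie near the shares of all genes given above, and by total counts 7 fell in Ground pups. In replicates 1 to 3 Ctsc, a lysosomal protease, was lower by -1.10 and -1.06. Of 6 junction partners of E-cadherin, 3 fell in Space pups of replicates 4 to 6, Cdh2 (-0.78), Ctnnb1 (-0.35) and Ctnna1 (-0.34), and 1 fell in Ground pups, Ctnna1 (-0.42), beside 5.49% and 7.35% of all genes called lower. Without the Serpina6-high libraries Ctnna1 no longer passed in either (-0.25 and -0.39, adjusted p of 0.0805 and 0.0508, edgeR), which left 2 and 0 called. By total counts 5 of 6 fell in each kind of pup.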
